A study of Mus musculus with 2 samples.

Results

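The genes described here encode 8 proteins of GABA and glycine transmission, and were taken by symbol from the 27998 genes listed for both libraries. They are the GABA-synthesising enzymes Gad1 and Gad2, the vesicular transporter Slc32a1, the glycine transporter Slc6a9, the glycine receptor subunits Glra1, Glra2 and Glrb, and the GABA-A receptor subunit Gabra2. All 8 symbols were found, each once. Their messenger RNA was counted in single cells of mouse peripheral retina at postnatal day 8, in 1 droplet-based 3′ library per genotype. The DKO_Skp2het library came from alphaCre, Rbf/f, p107-/-, skp2+/- retina, which the labels call tumor-resistant. The DKO library came from alphaCre, Rbf/f, p107-/- retina, which the labels call tumor-prone. Both genotypes thus lack p107 in all cells and carry floxed Rb with a retinal Cre driver, and no retina with intact Rb and p107 was analysed here. Rb and p107 restrain entry into the cell cycle, and Skp2 promotes it by targeting the inhibitor p27 for destruction. The alpha-Cre driver acts in progenitors of the peripheral retina, and recombination was not measured cell by cell. The number of animals behind each library is not given in the sources used here.

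GABA and glycine are the fast inhibitory transmitters of the retina, and amacrine cells are their main source. An amacrine cell that releases GABA makes it from glutamate with Gad1 or Gad2, whereas a glycinergic amacrine cell collects glycine through the transporter encoded by Slc6a9. Slc32a1 loads either transmitter into synaptic vesicles. Glycine receptors are chloride channels built from alpha subunits such as Glra1 and Glra2 with the beta subunit Glrb, which binds the scaffold gephyrin, and Gabra2 is an alpha subunit of the GABA-A receptor chloride channel.

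The upstream sequences of Gad1 and Gabra2, whose UMIs lay mostly in amacrine-like cells and small neuronal clusters, are set beside those of Gad2 and Glra2, which were highest in immature neuron-like cells. Each is the longest stretch without an annotated exon within the 250 bases before the RefSeq gene start (GRCm38.p6), read 5′ to 3′ on the gene's strand, with any E-box (CANNTG, the core bound by basic helix-loop-helix factors) or GCCNNNGGC match (the core of the AP-2 site) in capitals.
Gad1: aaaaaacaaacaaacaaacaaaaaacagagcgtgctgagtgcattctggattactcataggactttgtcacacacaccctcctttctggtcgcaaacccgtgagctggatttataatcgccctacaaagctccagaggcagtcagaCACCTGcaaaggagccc
Gabra2: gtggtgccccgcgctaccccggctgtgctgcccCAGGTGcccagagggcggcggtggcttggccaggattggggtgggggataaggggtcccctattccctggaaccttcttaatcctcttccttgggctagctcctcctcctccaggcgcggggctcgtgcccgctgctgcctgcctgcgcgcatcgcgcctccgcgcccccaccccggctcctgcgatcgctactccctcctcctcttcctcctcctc
Gad2: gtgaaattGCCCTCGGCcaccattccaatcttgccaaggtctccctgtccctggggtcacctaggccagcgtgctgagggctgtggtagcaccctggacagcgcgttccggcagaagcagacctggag
Glra2: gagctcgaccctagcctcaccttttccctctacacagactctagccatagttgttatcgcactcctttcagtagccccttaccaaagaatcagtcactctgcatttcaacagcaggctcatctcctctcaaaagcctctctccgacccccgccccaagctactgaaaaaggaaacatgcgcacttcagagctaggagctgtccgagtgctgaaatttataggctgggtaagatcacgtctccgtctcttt
The Gad1 stretch lies at chr2:70561879-70562041 on the plus strand and the Gabra2 stretch at chr5:71095850-71096099 on the minus strand. In the GENCODE annotation Gad1 starts further upstream, at chr2:70553072, so the Gad1 stretch lies inside that annotated gene. The Gad2 stretch lies at chr2:22622077-22622204 on the plus strand and the Glra2 stretch at chrX:165327394-165327643 on the minus strand. All motifs searched read the same on both strands. Gad1 held 1 E-box, 104 bases before its start, and Gabra2 held 1, 217 bases before its start. Gad2 and Glra2 held none in these windows. An E-box stood in 52.1% of 32851 mouse promoters over the Gad1 window, in 43.9% over the Gad2 window and in 66.2% over the Glra2 and Gabra2 window. The E-box CAGCTG, a special case of CANNTG held by 8.20%, 6.47% and 13.001% of promoters over the same windows, was in none of the 4 stretches. The palindromic Ebf site, held by 0.481%, 0.387% and 0.779%, was in none of them either. GCCNNNGGC occurred once, in Gad2, 242 bases before the start, against 6.05% of promoters over that window, 8.23% over the Gad1 window and 13.7% over 250 bases. A match describes these letters only.

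The DKO_Skp2het library gave 4978 kept cells with a median of 3805 unique molecular identifiers (UMIs, 1 per captured transcript) per cell, and the DKO library 3515 with a median of 4876. The lowest barcode had 2387 UMIs in DKO_Skp2het and 3420 in DKO, and 30 barcodes occurred in both libraries. Skp2 stood at 57.1 and 80.8 CPM (a gene's UMIs scaled to a total of 1000000) in DKO_Skp2het and DKO cells. Cells were clustered without the 8 genes and without 37 other genes of the pathway, and 16 of 27 clusters were named from markers. The amacrine-like class joins cluster 11 (Cartpt, Sst, C1ql2, Tfap2b, Tac1) with cluster 17 (Crybb3, Maf, Snhg11) and held 141 DKO_Skp2het cells (2.83%) and 165 DKO cells (4.69%). All 12 amacrine markers were detected in it, with 9967 CPM in sum in DKO_Skp2het and 11190 CPM in DKO. The immature neuron-like class, led by Igfbpl1, Nhlh2 and Ebf3, held 521 and 420 cells, and its amacrine markers summed to 2757 and 2708 CPM. The amacrine and horizontal precursor-like class, led by Ptf1a and Prdm13, held 88 and 184 cells. Clusters 20 (Lamp5, Gjd2), 21 (Scg2, Pnoc, Calb2) and 24 (Calb1, Lhx1) did not pass the full naming rule and are called by number. Cluster 24, with 16 and 12 cells and median depths of 13690 and 13428.5 UMIs, was nearest to horizontal cells. Its 5 horizontal cell markers averaged a log2 fold of 4.73 and were all above 2-fold. It went unnamed because Sncg and Nefl, on the ganglion cell list, were among its leading genes as well. With 1 library per genotype, no difference between genotypes has a replicate check, no test was made, and every interval is a 95% interval for counting error only.

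Gad1 marked amacrine-like cells. It stood at 227 CPM (95% interval 194 to 263) in DKO_Skp2het amacrine-like cells and at 317 CPM (284 to 354) in DKO amacrine-like cells, from 176 and 321 UMIs. These cells held 81.1% of all Gad1 UMIs in DKO_Skp2het (75.3 to 86.1) and 85.8% in DKO (81.9 to 89.2). The next level was that of cluster 21, at 176 CPM (107.2 to 271) in DKO_Skp2het and 89.8 CPM (56.2 to 136) in DKO. Immature neuron-like cells had 0 Gad1 UMIs in DKO_Skp2het, where 3 counts, taken as the limit that a count of 0 allows, come to 1.30 CPM, and 3 UMIs in DKO. Bipolar-like, cluster 20 and microglia-like cells had 0 in both libraries. After thinning of each cell to 2000 UMIs, 34.0% of amacrine-like cells had a Gad1 UMI in DKO_Skp2het and 44.8% in DKO, with 60.3% and 70.9% before thinning, against 0 microglia-like cells in either library.

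Gad2, the other GABA-synthesising enzyme, was spread far more widely. Its highest level was in immature neuron-like cells, at 238 CPM (219 to 259) in DKO_Skp2het and 285 CPM (265 to 306) in DKO. Amacrine and horizontal precursor-like cells followed at 164 CPM (138 to 194) and 160 CPM (144 to 178), a level whose interval overlapped that of amacrine-like cells, at 161 CPM (134 to 192) and 135 CPM (114 to 160). Amacrine-like cells held 6.89% of Gad2 UMIs in DKO_Skp2het and 6.41% in DKO. Müller glia-like cells, the radial glia of the retina, had 67.0 CPM (57.9 to 77.1) and 58.4 CPM (48.6 to 69.7), and rod-like cells had 55.6 CPM (43.1 to 70.6) and 50.2 CPM (39.2 to 63.4). Microglia-like cells had 3 and 0 Gad2 UMIs, and 2.44% and 0% of them had a Gad2 UMI after thinning, against 12.01% and 12.05% of Müller glia-like cells. The level of the Müller glia-like and rod-like classes was thus above that of microglia-like cells of the same libraries. It was uneven within each class. Müller glia-like cluster 1 had 74.3 and 61.7 CPM. Cluster 15, where all 10 Müller glia markers were above 2-fold, had 18.4 CPM (7.39 to 37.9) and 22.7 CPM (6.18 to 58.1). These intervals overlapped those of microglia-like cells, 1.97 to 28.0 and 0 to 13.7 CPM. Rod-like cluster 10 had 10.4 CPM (4.75 to 19.7) and 22.2 CPM (14.1 to 33.3). Its interval overlapped that of microglia-like cells in DKO_Skp2het but not in DKO. Cluster 10 gave only 9 of 67 rod-like Gad2 UMIs in DKO_Skp2het and 23 of 71 in DKO. The rest came from the smaller rod-like clusters 19, with 29 and 33 cells, and 23, with 14 and 16 cells.

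Slc32a1, the vesicular transporter for both transmitters, was high in the amacrine-like class and in clusters 20, 21 and 24. It stood at 207 CPM (176 to 242) in DKO_Skp2het amacrine-like cells and 233 CPM (205 to 265) in DKO amacrine-like cells. Cluster 20 had 198 CPM (118 to 314) and 122 CPM (71.2 to 196), cluster 24 had 126 CPM (84.6 to 181) and 127 CPM (79.6 to 192), and cluster 21 had 132 CPM (73.7 to 217) and 89.8 CPM (56.2 to 136). The intervals of these 4 groups overlapped in DKO_Skp2het. Immature neuron-like cells were lower, at 89.6 CPM (77.8 to 103) and 73.7 CPM (63.8 to 84.7). Amacrine and horizontal precursor-like cells had 9.67 and 12.3 CPM, against 164 and 160 CPM of Gad2 in the same cells. Müller glia-like cells had 0 and 1 Slc32a1 UMIs.

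Slc6a9 was nearly missing from the amacrine-like class and highest in cluster 20. Amacrine-like cells had 4 UMIs in DKO_Skp2het, or 5.15 CPM (1.40 to 13.2), and 5 UMIs in DKO, or 4.94 CPM (1.61 to 11.5). Cluster 20, with 23 DKO_Skp2het and 26 DKO cells, had 386 CPM (269 to 536) and 338 CPM (248 to 449). In the pathway list, Slc6a5, the neuronal glycine transporter, and Glra3, another glycine receptor alpha subunit, were also highest in cluster 20, at 26.1 and 43.5 CPM over both libraries. Slc6a5 and Glra3 had only 72 and 113 UMIs in all classes of both libraries together, so these levels rest on few counts. Cluster 20 detected 11 of 12 amacrine markers in each library, at 2546 and 2790 CPM in sum, but C1ql2 was at 0. The mean log2 fold of the amacrine markers over all other cells, libraries pooled, was only 0.28. In the same cells 7 of 10 Müller glia markers summed to 1477 and 1280 CPM, and 2 and 4 of 5 horizontal cell markers to 948 and 985 CPM. Of the horizontal cell markers, Onecut1, Lhx1 and Calb1 were at 0 in DKO_Skp2het and Lhx1 in DKO. The DKO_Skp2het sum thus came from Onecut2 and Prox1, and Prox1 is also among the amacrine subtype genes compared below. Immature neuron-like cells had 96.5 CPM of Slc6a9 (84.2 to 110) and 92.3 CPM (81.2 to 105), followed by rod-like cells at 52.3 CPM (40.2 to 66.9) and 46.7 CPM (36.1 to 59.4) and cone-like cells at 42.7 and 36.5 CPM. Rod-like and cone-like intervals overlapped. Müller glia-like cells had 3.43 and 5.70 CPM.

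**Figure D1:**
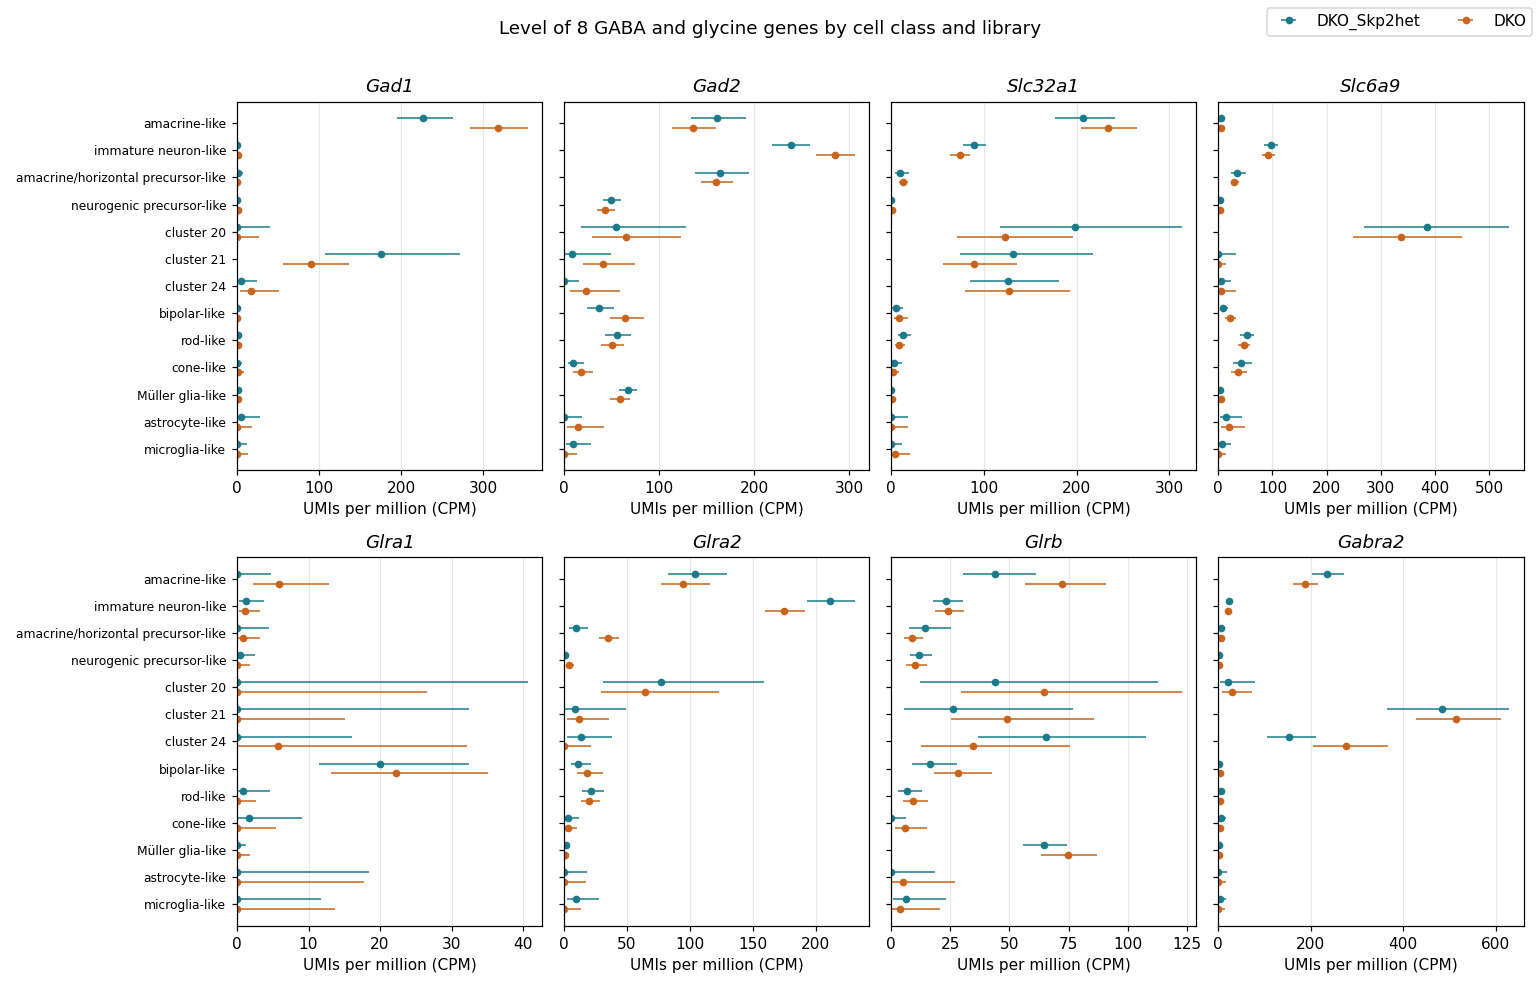
Level of each gene (CPM, linear axes that differ between panels) in 10 named classes and clusters 20, 21 and 24, for DKO_Skp2het (upper point) and DKO (lower point), with 95% counting intervals. Gad1 is high in amacrine-like cells and cluster 21, Slc6a9 in cluster 20, Glra2 and Gad2 in immature neuron-like cells, Glra1 in bipolar-like cells and Glrb in Müller glia-like cells among others.

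The glycine receptor subunits lay in different cells. Glra2, an alpha subunit known from immature neurons, was highest in immature neuron-like cells, at 212 CPM (193 to 231) in DKO_Skp2het and 175 CPM (159 to 192) in DKO. Amacrine-like cells had 104 CPM (82.8 to 130) and 94.9 CPM (76.9 to 116). Immature neuron-like cells held 73.4% of Glra2 UMIs in DKO_Skp2het and 63.1% in DKO. Glra1, the alpha subunit of the adult receptor, had only 23 and 34 UMIs in all, and 16 and 18 of them were in bipolar-like cells, at 20.01 CPM (11.4 to 32.5) and 22.2 CPM (13.2 to 35.2). No Glra1 UMI was found in Müller glia-like or microglia-like cells of either library.

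Glrb, the beta subunit, was not confined to neurons. Müller glia-like cells had 64.6 CPM (55.7 to 74.5) in DKO_Skp2het and 74.6 CPM (63.4 to 87.2) in DKO and held 28.4% and 24.6% of its UMIs. Cluster 2, an unnamed cluster in which 99.6% of DKO_Skp2het and 100% of DKO cells were dividing, had 50.6 CPM (42.1 to 60.3) and 45.7 CPM (37.9 to 54.5). Amacrine-like cells had 43.8 CPM (30.3 to 61.2) and 72.2 CPM (56.6 to 90.8), which overlapped the Müller glia-like level in each library. Immature neuron-like cells, where Glra2 was highest, had 23.4 CPM and 24.2 CPM of Glrb.

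Gabra2, the GABA-A receptor subunit, was highest in cluster 21, at 483 CPM (364 to 628) in DKO_Skp2het and 514 CPM (428 to 612) in DKO. Cluster 21 held 15 and 23 cells, and 86.7% and 95.7% of them had a Gabra2 UMI. Amacrine-like cells had 236 CPM (203 to 272) and 188 CPM (162 to 217), and cluster 24 had 152 CPM (106 to 212) and 277 CPM (204 to 367), so that the order of these 2 groups differed between the libraries. Within the amacrine-like class, Gabra2 was higher in cluster 11, at 315 and 243 CPM, than in cluster 17, at 58.1 and 77.3 CPM. Gad1 did not share that split in DKO, with 316 CPM in cluster 11 and 321 CPM in cluster 17, while DKO_Skp2het had 177 and 336 CPM.

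**Figure D2:**
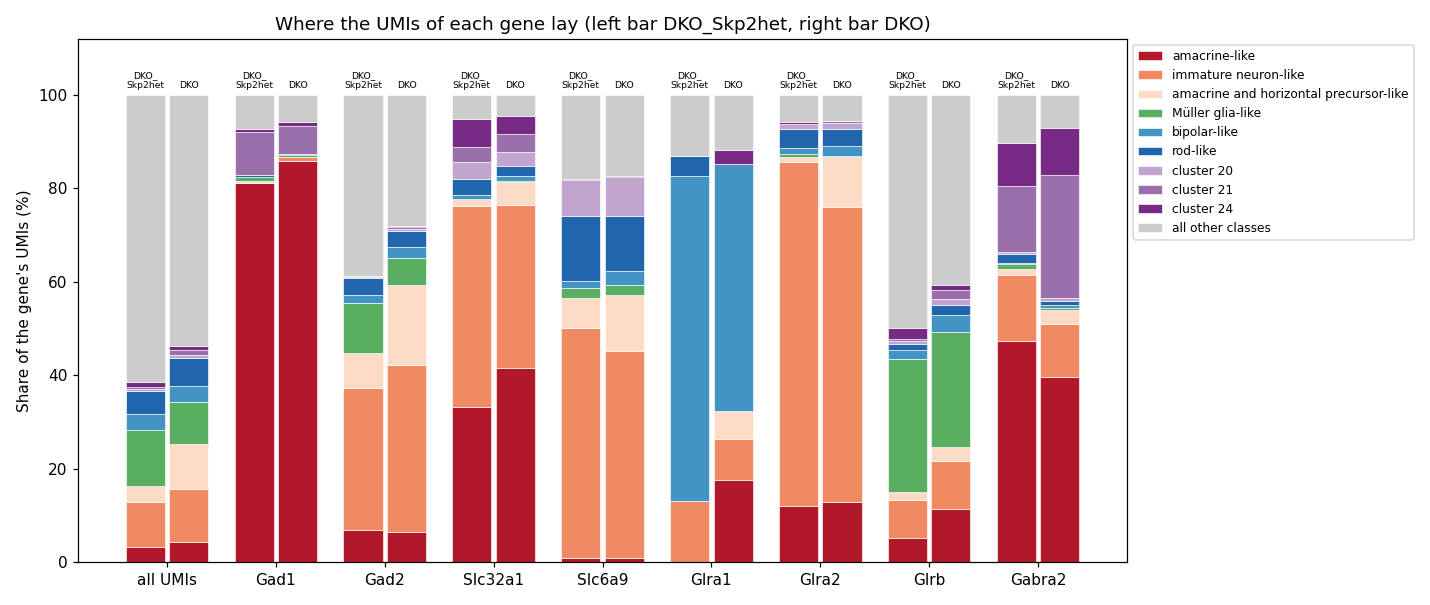
Share of each gene's UMIs (%, stacked to 100) by class, with the share of all UMIs for scale, for DKO_Skp2het (left bar) and DKO (right bar). Amacrine-like cells hold over 80% of Gad1 UMIs but under 10% of Gad2 UMIs and under 1% of Slc6a9 UMIs, while immature neuron-like cells hold the largest share of Glra2 and Slc6a9 UMIs.

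Set against all other kept cells of the same library, 5 of the 7 genes measured there were at least 2-fold higher in amacrine-like cells of DKO_Skp2het and 5 of 7 in those of DKO, on the log2(CPM + 5) scale, where 11.7% and 11.9% of all genes tested were. In DKO_Skp2het the fifth was Gad2, at a log2 difference of 1.10, and in DKO it was Glrb, at 1.36. The log2 difference was 5.10 and 5.45 for Gad1, 4.13 and 3.43 for Gabra2, 3.49 and 3.59 for Slc32a1, and -1.26 and -1.58 for Slc6a9. In immature neuron-like cells 4 of 7 were at least 2-fold higher in each library, against 4.89% and 3.75% of all genes. These were Glra2, Slc6a9, Gad2 and Slc32a1 in DKO_Skp2het, at 4.04, 2.70, 1.95 and 2.42, with 3.30, 2.28, 2.03 and 1.79 in DKO. The classes were built from the same cells, so these counts describe the classes.

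In single amacrine-like cells UMIs of Slc6a9 were rare, whether or not Gad1 or Gad2 was seen. Of 141 DKO_Skp2het amacrine-like cells, 110 had Gad1 or Gad2 UMIs without Slc6a9, 1 had Slc6a9 alone, 2 had both and 28 had neither. Of 165 DKO amacrine-like cells, 141 had Gad1 or Gad2 alone, 1 had Slc6a9 alone, 4 had both and 19 had neither. Slc6a9 was thus seen in 1.79% (0.217 to 6.30) of Gad-positive cells in DKO_Skp2het and in 2.76% (0.757 to 6.91) in DKO, against 4.88% and 0% of microglia-like cells. Among Gad-negative amacrine-like cells it was seen in 1 of 29 in DKO_Skp2het and 1 of 20 in DKO, so these cells do not show whether the genes avoid each other. After thinning to 2000 UMIs, 0 DKO_Skp2het and 2 DKO amacrine-like cells had an Slc6a9 UMI. The low share was that of the class, not of cells taken by amacrine markers alone. Among cells with 3 or more UMIs of Tfap2a, Tfap2b, Tfap2c, C1ql1 and C1ql2, 346 in DKO_Skp2het and 483 in DKO, Slc6a9 was seen in 24.8% and 27.5% of Gad-positive cells at the deposited depth. That gate took 124 and 150 amacrine-like cells, but also 118 and 148 immature neuron-like, 25 and 71 precursor-like and 8 and 14 cluster 20 cells.

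Immature neuron-like cells gave another picture. Both kinds of gene were found in 94 of 521 DKO_Skp2het cells and in 116 of 420 DKO cells, with Gad alone in 184 and 172, Slc6a9 alone in 63 and 42, and neither in 180 and 90. Slc6a9 was seen in 33.8% (28.3 to 39.7) of Gad-positive and 25.9% (20.5 to 31.9) of Gad-negative cells of DKO_Skp2het, and in 40.3% (34.6 to 46.2) and 31.8% (23.99 to 40.5) in DKO. Gad-positive cells were also deeper, with median UMIs of 3808 against 3299 in DKO_Skp2het and 5026 against 4120 in DKO. After thinning, Slc6a9 was seen in 16.3% (11.1 to 22.7) of Gad-positive and 18.9% (14.9 to 23.4) of Gad-negative cells of DKO_Skp2het. In DKO it was seen in 10.3% (6.12 to 16.0) and 20.4% (15.6 to 25.9). Thinning also left 172 Gad-positive cells of 278 in DKO_Skp2het and 165 of 288 in DKO, so the Gad-negative cells then include cells with Gad UMIs at the deposited depth. The higher share in Gad-positive cells was thus not seen at equal depth, and the thinned intervals overlapped in both libraries, in DKO only at their ends.

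Cluster 20 was the only group shown in which Slc6a9 alone was the largest category, with 12 of 23 DKO_Skp2het and 18 of 26 DKO cells. It had Slc6a9 together with Gad2 in 4 and 5 cells and Gad2 alone in 0 and 1, and no Gad1 UMI. Slc32a1 and Slc6a9 occurred together in 10 DKO_Skp2het and 10 DKO cells of cluster 20. In amacrine-like cells 80.0% (69.6 to 88.1) of DKO_Skp2het and 91.6% (84.6 to 96.1) of DKO cells with Slc32a1 had Gad1 or Gad2, beside 78.7% and 81.0% of cells without Slc32a1. Gad1 and Gad2 were found together in 42 and 55 amacrine-like cells, Gad1 alone in 43 and 62, and Gad2 alone in 27 and 28. At equal depth Gad2 was seen in 12 of 48 Gad1-positive and 25 of 93 Gad1-negative amacrine-like cells of DKO_Skp2het, and in 14 of 74 and 21 of 91 of those of DKO.

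**Figure D3:**
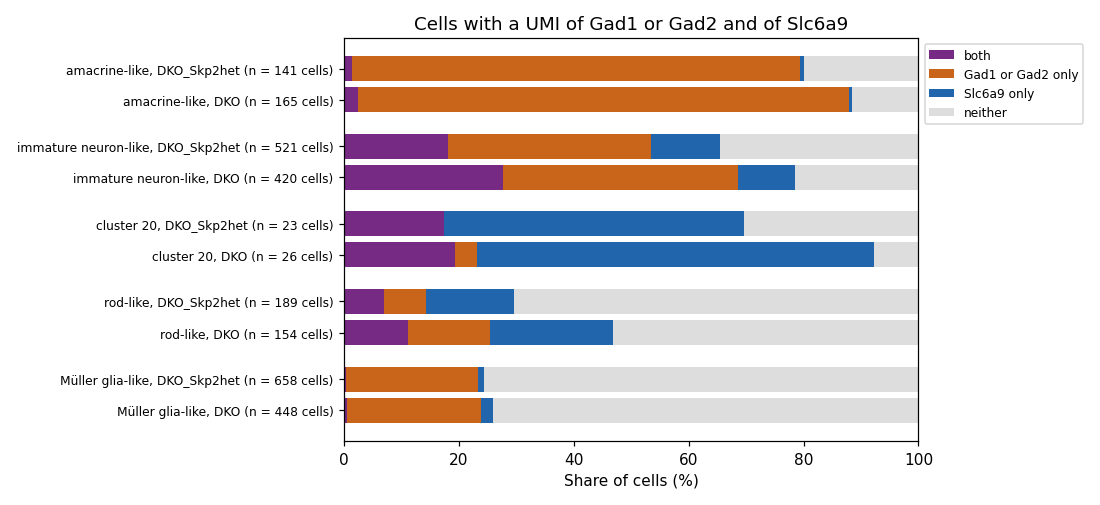
Share of cells (%) with UMIs of both Gad and Slc6a9, of Gad1 or Gad2 only, of Slc6a9 only, or of neither, at the deposited depth, in 5 classes of DKO_Skp2het (upper bar of each pair) and DKO (lower bar). Amacrine-like bars are almost all Gad only or neither, cluster 20 bars are mostly Slc6a9 only, and immature neuron-like bars hold all 4 categories.

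With 1 Slc6a9-only cell in each library, amacrine-like cells allowed no comparison of Gad-only with Slc6a9-only cells, so it was made in immature neuron-like cells. Of 18 amacrine subtype genes measured, with at least 20 UMIs in these cells of both libraries together, 1 was at least 2-fold higher in Gad-only cells of both libraries and 0 in Slc6a9-only cells. It was Sox2, a transcription factor of progenitors and a subset of amacrine cells, with 19 and 1 UMIs in Gad-only and Slc6a9-only cells of DKO_Skp2het and 30 and 1 in DKO. The intervals of its ratios, 0.898 to 235 and 0.942 to 231, held 1. Ebf1, a transcription factor gene, had a Gad-only to Slc6a9-only ratio of 0.794 (0.663 to 0.954) in DKO_Skp2het and 0.697 (0.582 to 0.839) in DKO. Among the other 4848 genes, with at least 30 UMIs in each library, 14 were at least 2-fold apart in the same direction in both libraries, 12 higher in Gad-only and 2 in Slc6a9-only cells. The 5 furthest apart in each direction are named. Id1, an inhibitor of basic helix-loop-helix factors, was higher in Gad-only cells, at 68.8 CPM against 12.4 CPM in Slc6a9-only cells of DKO_Skp2het and 79.2 against 25.3 CPM in DKO. Ripply3, a transcriptional co-repressor that also leads the amacrine and horizontal precursor-like class, had 39.3 against 12.4 CPM and 65.8 against 25.3 CPM. Klc3, Iqcb1 and Crip2 were higher in Gad-only cells as well. All 5 of these genes, Id1 and Ripply3 included, had at most 5 UMIs in the Slc6a9-only cells of a library. The ratio interval held 1 for Ripply3 in DKO_Skp2het (0.992 to 16.2). It also held 1 in DKO for Klc3 (0.901 to 29.9) and Iqcb1 (0.875 to 29.1). The Gad-only sets had 184 and 172 cells, and the Slc6a9-only sets 63 and 42. The 2 at least 2-fold higher in Slc6a9-only cells were Gm11744 and Ly6h, a membrane-anchored protein of neurons, at 56.5 CPM in Gad-only and 215 CPM in Slc6a9-only cells of DKO_Skp2het, and 34.4 against 197 CPM in DKO. The next in that direction were under 2-fold apart in at least 1 library. They were Grin2b, an NMDA receptor subunit, at 24.6 against 53.7 CPM and 21.9 against 70.7 CPM, Mef2a and Serp2.

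Cells with 3 or more UMIs of 26 proliferation genes after thinning to 1500 UMIs were called dividing, 44.6% of DKO_Skp2het (43.2 to 45.9) and 56.8% of DKO cells (55.1 to 58.4). No common floor of UMIs per cell was set for these shares of dividing cells. Amacrine-like cells were almost all outside this group, with 0 dividing cells in DKO_Skp2het and 1 in DKO. Gad1 had 28 UMIs in dividing cells of DKO_Skp2het and 36 in those of DKO, of which 13 and 17 came from the 9 and 12 dividing cells of cluster 21. Dividing cluster 21 cells had 183 CPM (97.3 to 312) and 98.3 CPM (57.3 to 157) of Gad1, with 309 and 457 CPM of Gabra2 and 155 and 92.5 CPM of Slc32a1. Cluster 21 also carried 10 and 11 of 12 amacrine markers and, at 1966 and 1522 CPM in sum, markers on the ganglion cell list, with Pou4f1, Pou4f2, Sncg and Slc17a6 at 0 in both libraries and Rbpms at 0 in DKO. Bipolar cell markers summed to 1992 and 1505 CPM there, with Vsx1, Grm6 and Cabp5 at 0 in both, and Müller glia markers to 1501 and 979 CPM. Isl1 is on both the ganglion cell and the bipolar cell list and was detected in both libraries. The ganglion and bipolar sums therefore share its UMIs and are not separate signals. The median depth of cluster 21 was 5983 and 8381 UMIs, above that of either library, and whether doublets contribute was not tested.

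Dividing cells held 41.3% of Gad2 UMIs in DKO_Skp2het and 52.4% in DKO, beside 48.7% and 60.8% of all UMIs. Gad2 stood at 63.9 and 78.3 CPM in dividing cells and at 86.3 and 111 CPM in the others. Of the cells in which Gad2 was highest, 6.72% of DKO_Skp2het and 19.8% of DKO immature neuron-like cells were dividing, and their Gad2 level was 230 CPM (178 to 292) and 276 CPM (240 to 315) when dividing, against 240 and 289 CPM when not. Amacrine and horizontal precursor-like cells were dividing in 70.5% and 80.4% of cells.

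Over all kept cells, 7 of the 8 genes were lower in DKO_Skp2het than in DKO, where 44.2% of all genes tested were, and Glrb, the remaining one, was lower too after thinning. On the log2(CPM + 5) scale 0 were at least 1.5-fold lower and 0 higher, where 0.208% and 0.423% of 13473 genes tested were. Their median log2 difference was -0.24, against 0.02 over all genes. Gad1 was lowest relative to DKO, at 9.03 against 15.9 CPM, a ratio of 0.567 (0.478 to 0.672), which passes 1.5-fold with a pseudocount of 1 CPM but not of 5. Without amacrine-like cells the Gad1 ratio was 0.748 (0.485 to 1.15), and 0 of 8 genes were at least 1.5-fold lower and 0 higher, against 0.225% and 0.42% of all genes. Slc6a9 stood at a ratio of 0.791 (0.697 to 0.897), Gabra2 at 0.788 (0.687 to 0.903), Gad2 at 0.829 (0.778 to 0.883), Slc32a1 at 0.831 (0.735 to 0.940) and Glra2 at 0.874 (0.786 to 0.971). Glrb was at 1.01 (0.907 to 1.13), and its log2 difference was -0.33 with every cell thinned to 2000 UMIs. In sums over all cells, fewer cells of a type and less RNA per cell cannot be told apart, and amacrine-like cells made up 2.83% of DKO_Skp2het and 4.69% of DKO cells. Such shares depend on the lowest depth kept, which was 2387 UMIs in DKO_Skp2het and 3420 in DKO. With a common floor of 3420 UMIs, the amacrine-like class held 120 DKO_Skp2het and 169 DKO cells, in place of 141 and 165. The immature neuron-like class then held 303 and 415 cells, in place of 521 and 420.

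In dividing cells, 1 of the 7 genes measured, Glra2, was at least 1.5-fold lower in DKO_Skp2het, against 0.995% of all genes, and 0 were higher, against 0.439%. Glra2 stood at 7.26 CPM in DKO_Skp2het and 16.1 CPM in DKO, a ratio of 0.451 (0.347 to 0.581). The counts of dividing immature neuron-like cells were 35 in DKO_Skp2het and 83 in DKO, and those of dividing amacrine and horizontal precursor-like cells 62 and 148. Without these 2 classes 1 of 7, Gabra2, was at least 1.5-fold lower, against 0.898% of all genes, and 0 were higher, against 0.398%. Without them the Glra2 ratio in dividing cells was 0.833 (0.531 to 1.30), and within dividing immature neuron-like cells it was 0.953 (0.657 to 1.36). Within dividing amacrine and horizontal precursor-like cells it was 0.204 (0.0537 to 0.549), from 4 UMIs in DKO_Skp2het and 59 in DKO. Slc32a1 was at 0.605 (0.445 to 0.817) in all dividing cells and 0.892 (0.568 to 1.39) without the 2 classes, and Gad2 at 0.817 (0.743 to 0.896) and 1.02 (0.912 to 1.15). Slc6a9 stood at 0.588 (0.456 to 0.754) in all dividing cells and 0.590 (0.401 to 0.859) without the 2 classes. Gabra2 stood at 0.542 (0.393 to 0.740) and 0.481 (0.339 to 0.674), and dividing cluster 21 cells gave 22 of its 60 UMIs in DKO_Skp2het and 79 of its 135 in DKO.

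In the cells not called dividing, 1 of 7 was at least 1.5-fold lower, against 0.734% of all genes, and 0 were higher, against 0.606%. It was Gad1, at 15.3 CPM in DKO_Skp2het and 36.7 CPM in DKO, a ratio of 0.418 (0.348 to 0.501). The other 6 measured were lower as well, where 47.1% of all genes were, with ratios from 0.708 for Gabra2 to 0.843 for Glra2. Glrb had a ratio of 0.806 (0.690 to 0.941) here and of 1.21 (1.03 to 1.42) in dividing cells, and with thinning its log2 differences were -0.61 and -0.07 in these 2 sets of cells. Of the cells not called dividing, 141 of 2760 in DKO_Skp2het and 164 of 1519 in DKO were amacrine-like. Gad1 stood at 227 and 317 CPM in these amacrine-like cells. The part of such class shares in the ratios over all cells not called dividing was not tested.

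**Figure D4:**
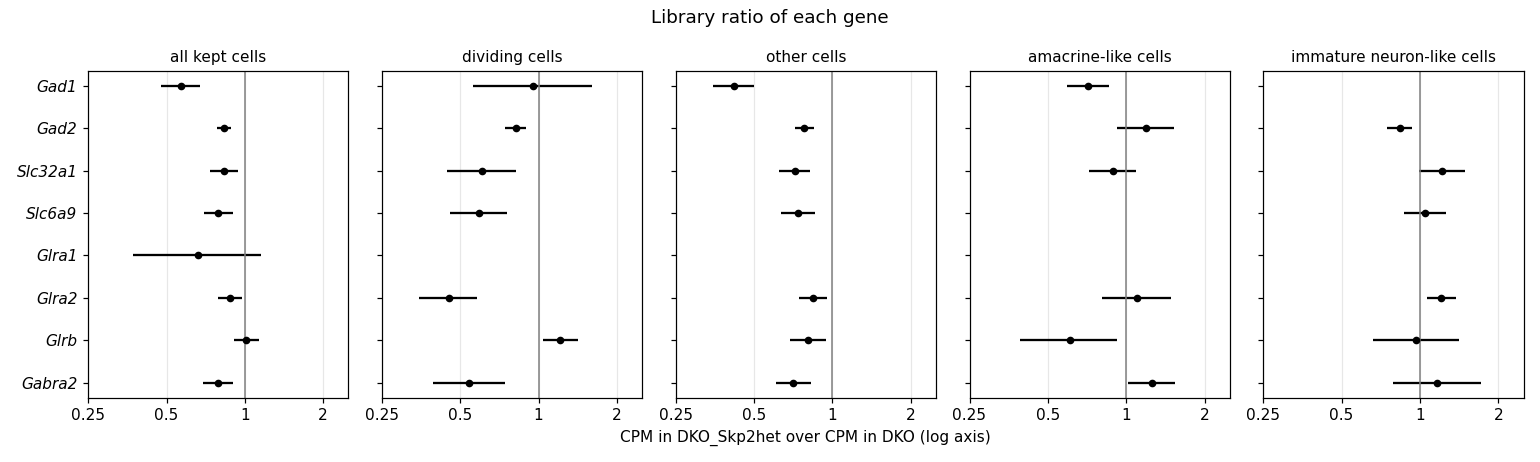
Ratio of CPM in DKO_Skp2het over CPM in DKO (log axis) with 95% counting intervals, in 5 sets of cells, for genes with at least 50 UMIs there. The grey line marks a ratio of 1. Over all kept cells 7 of 8 points lie left of it, with Glrb at 1.01 (log2 difference -0.33 after thinning), while in immature neuron-like cells Gad2 lies left and Glra2 right of it.

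Within amacrine-like cells, 1 of the 6 genes measured was at least 1.5-fold lower in DKO_Skp2het, against 2.44% of all genes, and 0 were higher, against 2.97%. It was Glrb, with 34 UMIs in DKO_Skp2het and 73 in DKO and a ratio of 0.606 (0.391 to 0.923). Gad1 per amacrine-like UMI was lower too, at a ratio of 0.714 (0.590 to 0.860), with 0.562 (0.436 to 0.718) in cluster 11 and 1.05 (0.775 to 1.41) in cluster 17. Gabra2 was higher, at 1.25 (1.02 to 1.54), whereas Gad2 at 1.19 (0.924 to 1.52), Slc32a1 at 0.888 (0.722 to 1.09) and Glra2 at 1.10 (0.807 to 1.49) had intervals that held 1. The share of amacrine-like cells with a Gabra2 UMI was 38.3% in DKO_Skp2het and 40.6% in DKO, and 24.1% and 23.6% after thinning. In the marker-gated cells the log2 difference of Gad1 was -0.03, that of Glrb -0.04 and that of Slc32a1 0.37, against -0.48, -0.66 and -0.17 in the class. All 10 rod markers were detected in amacrine-like cells of each library, at 239 CPM in sum in DKO_Skp2het and 87.0 CPM in DKO. Of 8 ganglion cell markers, 7 and 4 were detected, at 277 and 115 CPM, with Pou4f2 at 0 in both. The part of rod and ganglion cell RNA in these ratios was not tested.

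In immature neuron-like cells 0 of 6 genes measured were at least 1.5-fold apart in either direction, against 2.4% of all genes lower and 1.62% higher. Glra2 was higher there, at a ratio of 1.21 (1.06 to 1.38), and Gad2 lower, at 0.836 (0.748 to 0.934). In amacrine and horizontal precursor-like cells Glra2 was far lower, with 8 UMIs or 9.67 CPM (4.17 to 19.0) in DKO_Skp2het and 80 UMIs or 35.2 CPM (27.9 to 43.9) in DKO, a ratio of 0.274 (0.115 to 0.567). It was the 1 of 3 genes measured in that class that was at least 1.5-fold lower, against 3.7% of all genes, and 0 were higher, against 2.52%. Gad2 stood at 1.03 (0.836 to 1.25) and Slc6a9 at 1.19 (0.740 to 1.86) in the same cells.

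The wider pathway showed little difference between the libraries. Of 37 further receptor, transporter, enzyme and scaffold genes, 30 had at least 50 UMIs over all kept cells, and 0 of them were at least 1.5-fold lower and 0 higher, against 0.208% and 0.423% of all genes. Their median log2 difference was -0.02, against 0.02 over all genes. Slc12a5, the neuronal chloride exporter that makes GABA and glycine inhibitory, had the largest difference on the log2(CPM + 5) scale, at 18.01 CPM in DKO_Skp2het and 23.6 CPM in DKO, a ratio of 0.764 (0.672 to 0.868). Abat, which breaks down GABA, was higher at 1.22 (1.08 to 1.39). Nlgn2, an adhesion protein of inhibitory synapses, stood at 0.834 (0.758 to 0.919), the GABA-B receptor subunit Gabbr1 at 0.869 (0.804 to 0.940) and the GABA-A receptor subunit Gabrg3 at 0.727 (0.513 to 1.03).

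In amacrine-like cells the GABA transporter gene Slc6a11 stood at 210 CPM in DKO_Skp2het and 232 CPM in DKO, and Slc12a5 at 147 and 182 CPM. Of 15 pathway genes measured there, 0 were at least 1.5-fold lower and 2 were higher, against 2.44% and 2.97% of all genes. They were the GABA-A receptor subunit Gabrb1, with 32 and 21 UMIs and a ratio of 1.98 (1.11 to 3.62), and the GABA-B receptor subunit Gabbr2, with 78 and 63 UMIs and a ratio of 1.61 (1.14 to 2.28). Over clusters, the GABA rho receptor gene Gabrr1 was highest in bipolar-like cells, at 127 CPM over both libraries, the class in which Glra1 was highest.

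Across the 26 clusters with at least 20 cells, libraries pooled, the genes whose levels ran most like Gad1 included Kcnip1 and Syt6, with Pearson r of 0.927 and 0.895 on log2(CPM + 5). Gad1 and Gad2 had an r of only 0.245, and Gad1 and Slc6a9 one of -0.241. Gad2 was nearest to Tfap2c, Crabp2 and Pcdh19 (0.845, 0.838 and 0.836), and Slc32a1 to Tmem179, Cacng3 and Nsg2 (0.987, 0.968 and 0.964). Slc6a9 was nearest to Insc, Lgr5 and Zfp423 (0.861, 0.814 and 0.813), Glra1 to Scgn, Gabrr1 and Otor (0.892, 0.848 and 0.844), and Glra2 to Necab1, Slc1a6 and Ptpn5 (0.964, 0.940 and 0.925). Glrb was nearest to Fam174b, Ei24 and Khdrbs2 (0.840, 0.831 and 0.828), and Gabra2 to Tfap2b, Dcx and Sult4a1 (0.931, 0.912 and 0.908). Among the 8 genes themselves the nearest pair was Slc32a1 and Gabra2, at 0.888. The clusters share 2 libraries and differ in size and depth, and 12419 genes were compared, so these values only describe likeness.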

How the data were processed

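The authors deposited raw UMI counts per gene and barcode, made with Cell Ranger 2.2.0 on mm10 per the submitters' processing notes; the sources used here give neither barcode filter nor strand setting. Barcodes under 500 genes or over 20% mitochondrial UMIs were left out, and the highest doublet scores were removed at 0.8% per 1000 barcodes, 216 in DKO_Skp2het and 105 in DKO, because an automatic threshold marked 2 and 1. Both libraries were clustered together (scanpy 1.11.5, leidenalg 0.10.2, 2000 variable genes, 30 components, 15 neighbours, resolution 1.0), without the 8 genes and the pathway list. A cluster was named where its type's markers averaged a log2 fold of at least 1.0, with at least 3 above 2-fold and at least 1 among the 10 leading genes, more than for any other type.

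Counts were summed per class and library and given as CPM with exact Poisson intervals, ratios with exact conditional binomial intervals, shares with exact Clopper-Pearson intervals. Calls need 50 UMIs and 1.5-fold at a pseudocount of 5 CPM. The ratio script was tested on simulated data. Genes are from GENCODE mouse release 21 (GRCm38) and upstream sequences from RefSeq, which held no Glra1 entry in the table used. The 8 genes and all lists were chosen with earlier results of these data known. All 8 genes are named; of the pathway list, the 5 with the largest difference and the 3 with most UMIs in amacrine-like cells; per gene the 3 most alike; and of the other genes those furthest apart between Gad-only and Slc6a9-only cells. Gabrb1, Gabbr2, Gabrr1, Slc6a5, Glra3 and Ebf1 were named after their values were seen. Some genes that these rules name are not reported here.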

Additional observations from a re-analysis of the deposited data

Results flagged for a closer look

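At the deposited depth, Glra2 and Glrb differed in direction between sets of cells that share none, with counting intervals on opposite sides of 1. The Glra2 ratio of DKO_Skp2het over DKO was 1.21 in immature neuron-like cells and 0.274 in amacrine and horizontal precursor-like cells, where it rests on 8 UMIs in DKO_Skp2het and 80 in DKO. The Glrb ratio was 1.21 in dividing cells and 0.806 in the other cells, but with every cell thinned to 2000 UMIs its log2 differences were -0.07 and -0.61, so its opposite directions were not seen at equal depth. With 1 library per genotype neither difference was tested.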

How the results depend on the processing

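Of 465 values recomputed under alternatives, 421 stayed within the spread set for them, 44 moved and 0 turned round a called direction. The count of genes at least 1.5-fold lower was the least stable. In dividing cells (1) it was 0 with doublets kept, 2 with thinning to 2000 UMIs, 4 at a pseudocount of 1 CPM and 0 at 20 CPM. Over all kept cells (0) it was 1 with thinning, 1 with median-of-ratios scaling and 1 at a pseudocount of 1 CPM. In the cells not called dividing (1) it was 3 with thinning. In amacrine-like cells (1) it was 0 at a pseudocount of 20 CPM and 0 in marker-gated cells. That gate also put Gad1 after thinning in 14.5% of DKO_Skp2het and 15.9% of DKO cells, in place of 34.0% and 44.8%, and 91.4% of DKO Gad1 UMIs inside it, in place of 85.8%. Among Gad-positive gated cells, 24.8% of DKO_Skp2het and 27.5% of DKO cells had Slc6a9, in place of 1.79% and 2.76%. The gate includes immature neuron-like cells; other causes were not tested. With a common floor of 3420 UMIs per cell, the log2 difference of Gad1 over all kept cells was -0.39, in place of -0.58. No paired analysis was possible because each genotype has 1 library, and for the same reason no library could be left out. A floor of 1000 genes removed no cell. The comparison of Gad-only with Slc6a9-only amacrine-like cells could not be made; its use in immature neuron-like cells, and sums without the amacrine-like, immature neuron-like or precursor-like classes, were chosen after seeing the data.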
